A study of Bos taurus with 12 samples.

Results

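The urea cycle and the glutamine reactions beside it were followed in the liver of 4-d-old Holstein heifer calves through 10 genes: NAGS, CPS1, OTC, SLC25A15, ASS1, ASL, ARG1, SLC25A13, GLUL and GLS2. They were listed by symbol for their place in the pathway, by a rule that uses no measured value although earlier results of these data were known, and matched to the Entrez gene ID of a row in the count files. These are 10 of 30336 gene rows, and all 10 were among the 13212 genes with enough reads to be tested. The labels give liver RNA of 12 calves, of which 6 were born to cows on a control close-up diet without added Met (CON) and 6 to cows that received the same diet plus ethyl-cellulose rumen-protected methionine (MET) through the last 28 d of gestation. The basal diet shared by both groups held 15.3% crude protein and 1.47 Mcal per kg of dry matter, and calves of both groups were managed alike after birth, so that the treatment reached them through the dam alone.

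The liver disposes of ammonia in both of these ways. In mitochondria, NAGS makes N-acetylglutamate, the activator that CPS1 needs to turn ammonia and bicarbonate into carbamoyl phosphate, OTC joins this to ornithine, and the carrier encoded by SLC25A15 brings ornithine in and citrulline out. In the cytosol, ASS1 and ASL build arginine from citrulline and aspartate, ARG1 splits it into urea and ornithine, and the carrier encoded by SLC25A13 (citrin) exports the aspartate. The cycle is carried mainly by hepatocytes around the portal tract, where GLS2 (liver-type glutaminase) releases ammonia from glutamine, whereas GLUL (glutamine synthetase) binds leftover ammonia in the hepatocytes around the central vein. Neonates depend on the pathway because amino acids taken with milk that are not built into protein have to be deaminated.

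The libraries held 8277789 to 10397604 counted reads, and 3 reads, taken as the floor of detection for counting error only, equalled 0.289 to 0.362 CPM (counts brought to a shared library total after TMM scaling). Each of the 10 genes had at least 76 reads in every library. In CON the replicates 1 and 4, and in MET the replicates 1 and 3, had libraries that differed by hardly more than counting noise, with a chi-square per gene of 1.33 and 1.24 against 25.1 to 133 for all other pairs of libraries. Each pair was therefore taken as 1 sample, named CON 1+4 and MET 1+3, which leaves 5 samples per diet. Whether a pair came from 1 calf was not tested, and the labels name its libraries as separate samples. On the shared lane all CON libraries had the same first index and all MET libraries a different one, so that an index effect and a diet effect cannot be told apart. In whole tissue, fewer cells of a type and less RNA per cell cannot be told apart either.

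The labelled tissue carried its markers. The hepatocyte genes ALB, APOA1, TTR, TF, AHSG and SERPINA1 summed to 99571 to 151900 CPM in CON and 84694 to 122576 CPM in MET samples. The 10 urea cycle and glutamine genes together took 0.295 to 0.594% of the counted reads of a library, with the lowest share in MET replicate 5 and the highest in CON replicate 6.

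Expression per exonic length placed the cytosolic enzyme ASS1 first and NAGS, SLC25A15 and GLS2 last. Levels are given as RPKM, the CPM per kb of exon in the annotation, as mean ± SD of the 10 samples. ASS1 reached 545 ± 122 RPKM and CPS1 401 ± 101 RPKM, and ASS1 was above CPS1 in 9 of 10 samples. ARG1 (206 ± 84.7 RPKM), ASL (176 ± 47.9 RPKM) and GLUL (160 ± 51.8 RPKM) followed close together. ARG1 was above ASL in 7 of 10 samples and ASL above GLUL in 7 of 10, so that these neighbours did not differ beyond their spread.

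OTC stood at 82.6 ± 27.3 RPKM, below GLUL in each of the 10 samples although the ranges over all samples overlapped. SLC25A13 followed at 38.9 ± 6.18 RPKM with no overlap with OTC, and NAGS at 16.1 ± 5.77 RPKM with no overlap with SLC25A13. SLC25A15 (13.2 ± 6.29 RPKM) and GLS2 (13.2 ± 7.81 RPKM) closed the order, and they could not be ranked, since SLC25A15 was the higher of the pair in 6 of 10 samples. Mean levels thus spanned 41.2-fold from ASS1 to GLS2, and 5 of the 10 genes were above 100 RPKM. Among the 13212 tested genes ASS1 ranked 133rd and CPS1 186th by RPKM, and GLS2 ranked 3651st. The RPKM of NAGS rests on an annotated length of 5609 exonic bases in a gene of 9199 bases.

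**Figure D1:**
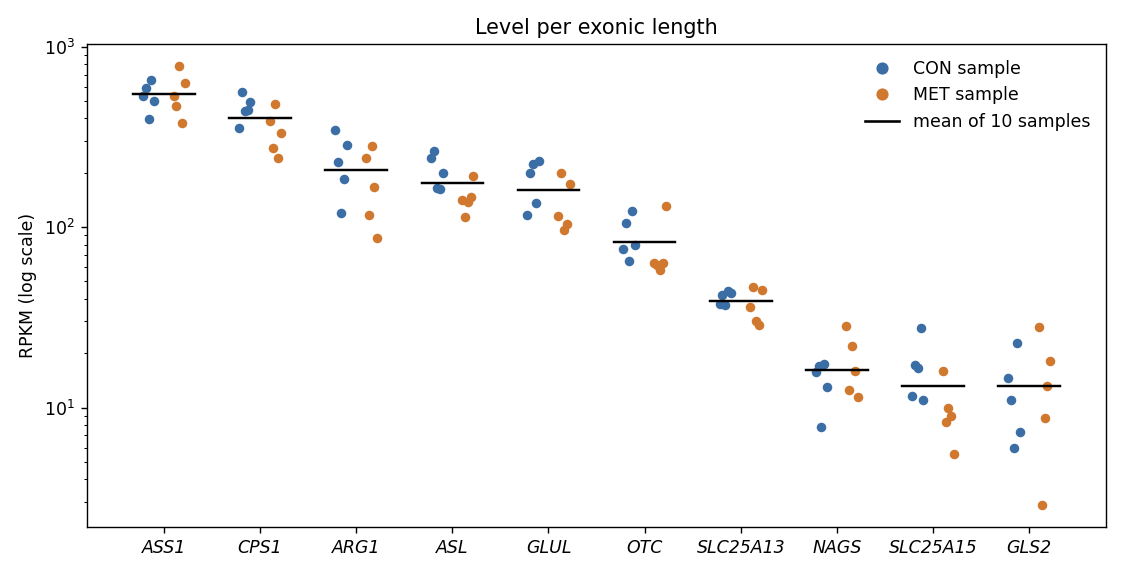
Level per exonic length (RPKM, log scale) of each gene in the 5 CON and 5 MET samples, with the mean of the 10 samples as a line. ASS1 and CPS1 lead at 545 and 401 RPKM, and NAGS, SLC25A15 and GLS2 share the lowest range.

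Between the diets, 1 of the 10 genes passed the test. ASL, which cleaves argininosuccinate into arginine and fumarate, was lower in MET over the 12 libraries at FDR 0.0889 in edgeR's quasi-likelihood test. The threshold of the study (FDR at most 0.10) was passed by 4.41% of all tested genes, 2.32% as lower in MET and 2.09% as higher. Scaled by library size alone, 107 genes were called, 71 as higher and 36 as lower, and ASL was not among them (FDR 0.114). With each library pair taken as 1 sample, edgeR called none of the 10 genes and no other tested gene (0.00%), with 0.155 as the lowest FDR. DESeq2 on the same 10 samples called 624 genes, again none of the 10 (ASL at FDR 0.127). In the edgeR fit over the 10 samples an unadjusted p of at most 0.05 was reached by 2 of the 10 genes, ASL and SLC25A15, against 16.4% of all tested genes. The log2 fold change (MET minus CON) was below 0 for 7 of the 10 genes in either fit, with medians of -0.29 (12 libraries) and -0.32 (10 samples), where the medians of all tested genes were 0.00. For no member were the 5 MET samples fully apart from the 5 CON samples, as they were for 3.71% of tested genes.

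**Figure D2:**
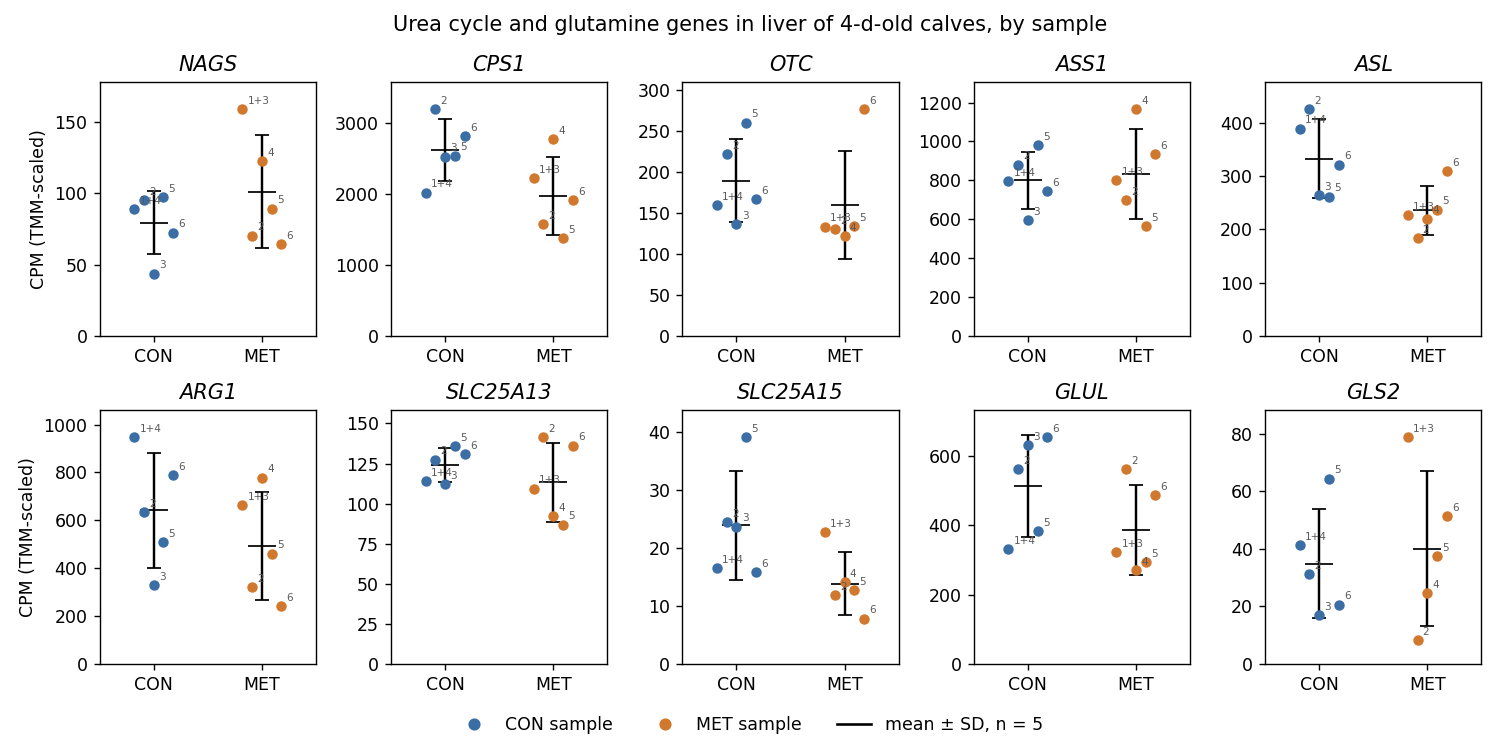
CPM of each gene in each sample, numbered by replicate, with the mean and SD of the 5 samples of a diet and each axis starting at 0. In ASL, OTC and SLC25A15, 4 of the 5 MET samples lie under every CON sample, while NAGS and GLS2 have their highest value in MET 1+3.

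ASL lies on chromosome 25 (28247948 to 28256745, minus strand, UMD 3.1.1). Its expression was 389 CPM in CON 1+4, 426 in CON 2, 265 in CON 3, 261 in CON 5 and 322 in CON 6. In MET calves it was 227 CPM in MET 1+3, 184 in MET 2, 220.3 in MET 4, 237 in MET 5 and 309.8 in MET 6. All MET samples but MET 6 were under the lowest CON sample, and all 5 were under the CON median. The means were 332 ± 73.7 CPM in CON and 236 ± 46.1 CPM in MET (SD, n = 5 samples). The log2 fold change was -0.55 (SE 0.16) over the 12 libraries, and -0.50 (95% interval -0.89 to -0.10, FDR 0.226) over the 10 samples. An exact two-sided permutation test over all arrangements of the 10 samples, which cannot give less than 0.0079, gave p = 0.0397. The call at FDR 0.10 was lost in 9 of 12 fits that each left out 1 library, all but those without CON 3, CON 5 or MET 6, and the FDR ran from 0.0806 to 0.167 over these fits.

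ASS1, which precedes ASL by condensing citrulline with aspartate (chromosome 11, 100791339 to 100843337, plus strand), did not pass the test. Its CPM was 795, 881, 595, 979.7 and 747 in CON 1+4, 2, 3, 5 and 6. In MET 1+3, 2, 4, 5 and 6 it was 799.8, 699, 1167, 566 and 936 CPM. Both the highest sample (MET 4) and the lowest (MET 5) were MET calves. The fitted log2 fold change was 0.05 (SE 0.17, FDR 0.898), and over the 10 samples 0.06 with a 95% interval of -0.39 to 0.51. Its sign turned when a gene length trend was removed and when CON 3 or MET 4 was left out.

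Within samples, the ratio of ASL to ASS1 on the RPKM scale varied 2.59-fold. It was 0.455, 0.449, 0.414, 0.248 and 0.400 in CON 1+4, 2, 3, 5 and 6, and 0.264, 0.244, 0.175, 0.390 and 0.308 in MET 1+3, 2, 4, 5 and 6. The CON samples were all above 0.39 except CON 5, and 2 of the 5 MET samples were below every CON sample. These ratios were not tested.

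ARG1, the enzyme that releases urea (chromosome 9, 70499154 to 70516610, plus strand), differed more among calves than between diets. Its CPM was 948, 635, 328, 510.5 and 789 in CON 1+4, 2, 3, 5 and 6. In MET 1+3, 2, 4, 5 and 6 it was 664, 321, 778, 461 and 241 CPM. The groups overlapped over most of their range, and 3.94-fold separated the highest sample (CON 1+4) from the lowest (MET 6). On the log2 scale, MET minus CON was -0.41 (SE 0.31, FDR 0.473), and over the 10 samples -0.38 with a 95% interval of -1.13 to 0.37. Without 1 of the 10 samples it ran from -0.61 (MET 4) to -0.20 (CON 1+4).

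SLC25A13, the aspartate-glutamate carrier (chromosome 4, 13345306 to 13550008, minus strand), was the steadiest member. Its CPM was 114, 127, 112, 136 and 131 in CON 1+4, 2, 3, 5 and 6, and 109, 142, 92.4, 86.9 and 136 in MET 1+3, 2, 4, 5 and 6. The MET samples lay on both sides of the CON range, with 3 below every CON sample and 2 above. Its log2 fold change was -0.12 (SE 0.13, FDR 0.634), and over the 10 samples -0.13 with a 95% interval of -0.46 to 0.20. Without 1 of the 10 samples it ran from -0.22 (MET 2) to -0.05 (MET 5).

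Among the mitochondrial steps, CPS1, which commits ammonia to the cycle (chromosome 2, 98704132 to 98898492, plus strand), had the most reads of all members. Its CPM was 2023, 3202, 2531, 2545 and 2819.8 in CON 1+4, 2, 3, 5 and 6. In MET 1+3, 2, 4, 5 and 6 it was 2223, 1577, 2771, 1382 and 1915 CPM. Samples MET 2, 5 and 6 were below every CON sample, and MET 4 was above 3 of them. The means were 2624 ± 433 CPM in CON and 1973 ± 549.9 CPM in MET (SD, n = 5 samples). The log2 fold change was -0.32 (SE 0.18, FDR 0.327) over the 12 libraries and -0.41 (95% interval -0.87 to 0.04, FDR 0.348) over the 10 samples, with an exact permutation p of 0.0794. With a gene length trend removed it was -0.22 (FDR 0.584), and -0.30 over the 10 samples.

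NAGS, on which CPS1 activity depends (chromosome 19, 44483511 to 44492709, plus strand), had values of 88.7, 95.03, 43.7, 97.5 and 72.4 CPM in CON 1+4, 2, 3, 5 and 6. In MET 1+3, 2, 4, 5 and 6 the values were 159, 70.3, 122, 89.3 and 64.3 CPM. MET 1+3 and MET 4 were above every CON sample, and the other MET samples lay inside the CON range. The fitted log2 fold change was 0.45 (SE 0.25, FDR 0.328), and over the 10 samples 0.35 with a 95% interval of -0.25 to 0.94. Without MET 1+3 it was 0.12 over the remaining samples, and without CON 3 it was 0.19.

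OTC, the citrulline-forming enzyme (chromosome X, 110318970 to 110395520, minus strand), had 159, 222, 137, 260.5 and 167 CPM in CON 1+4, 2, 3, 5 and 6. In MET 1+3, 2, 4, 5 and 6 it had 133, 130.03, 122, 134 and 277 CPM. Of the MET samples, 4 lay close together under every CON sample, and MET 6 was the highest of all 10 samples. On the log2 scale, MET minus CON was -0.25 (SE 0.22, FDR 0.549), and over the 10 samples -0.25 with a 95% interval of -0.80 to 0.30. Without MET 6 it was -0.54 over the remaining samples (FDR 0.271), and without CON 5 it was -0.11.

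SLC25A15, the ornithine carrier (chromosome 12, 21800765 to 21831677, minus strand), had the fewest reads of the members. Its CPM was 16.5, 24.4, 23.7, 39.1 and 15.8 in CON 1+4, 2, 3, 5 and 6, and 22.7, 11.8, 14.2, 12.8 and 7.83 in MET 1+3, 2, 4, 5 and 6. All MET samples but MET 1+3 were under the lowest CON sample, and all 5 were under the CON median. The means were 23.9 ± 9.37 CPM in CON and 13.8 ± 5.47 CPM in MET (SD, n = 5 samples). Its log2 fold change was -0.56 (SE 0.28, FDR 0.271) over the 12 libraries and -0.77 (95% interval -1.41 to -0.13, FDR 0.241) over the 10 samples. The exact permutation p was 0.0476 over the 10 samples and 0.102 over the 12 libraries. Without CON 5 the log2 fold change was -0.33 over the remaining libraries and -0.52 over the remaining samples, and without MET 1+3 it was -1.04.

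**Figure D3:**
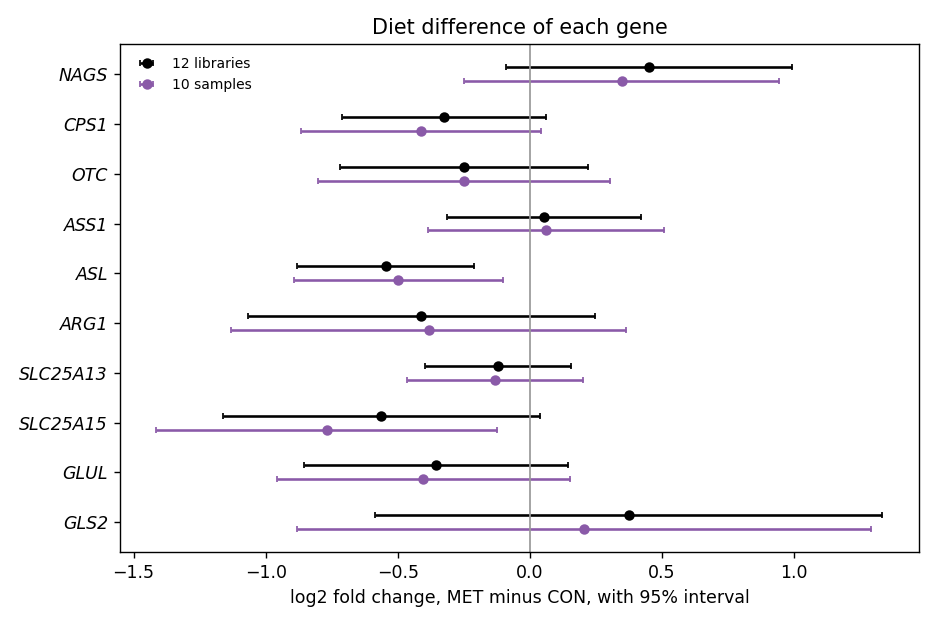
Log2 fold change (MET minus CON) of each gene with its 95% interval, from edgeR's quasi-likelihood fit over the 12 libraries (black) and over the 10 samples (violet). The interval lies wholly below 0 for ASL in both fits and for SLC25A15 over the 10 samples only.

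Of the genes of glutamine turnover, GLS2 varied the more from calf to calf. GLS2 (chromosome 5, 57240803 to 57253590, plus strand) had 41.2, 31.2, 16.9, 64.4 and 20.6 CPM in CON 1+4, 2, 3, 5 and 6. In MET 1+3, 2, 4, 5 and 6 it had 78.8, 8.20, 24.7, 37.4 and 51.3 CPM. Both extremes were MET calves, 9.61-fold apart. The SD of its log2 CPM within diets was 1.03, larger than that of 97.6% of tested genes. The log2 fold change was 0.37 (SE 0.45, FDR 0.673), and over the 10 samples 0.21 with a 95% interval of -0.88 to 1.29, which covers a doubling and a fall of nearly the same size. Without MET 1+3 the sign turned, to -0.20 over the remaining samples, and without CON 5 it was 0.54.

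GLUL (chromosome 16, 64948313 to 64958904, minus strand) had 330.5, 561, 632, 384 and 655 CPM in CON 1+4, 2, 3, 5 and 6, and 323, 562, 272, 293 and 488 CPM in MET 1+3, 2, 4, 5 and 6. Samples MET 1+3, 4 and 5 were below every CON sample, and the other MET samples were inside the CON range. The fitted log2 fold change was -0.36 (SE 0.23, FDR 0.408), and over the 10 samples -0.40 with a 95% interval of -0.96 to 0.15. The RPKM ratio of GLS2 to GLUL, which sets the periportal glutamine-splitting gene against the pericentral glutamine-making one, varied 16.7-fold. It was 0.124, 0.0553, 0.0267, 0.167 and 0.0314 in CON 1+4, 2, 3, 5 and 6, and 0.243, 0.0145, 0.0908, 0.127 and 0.105 in MET 1+3, 2, 4, 5 and 6. GLUL was the higher of both genes in every sample, and the lowest and the highest ratio again belonged to MET calves.

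The spread among calves of 1 diet was not alike over the 10 genes. The SD of log2 CPM within diets was 0.24 in SLC25A13, 0.30 in ASL, 0.33 in CPS1 and 0.34 in ASS1, and each was larger than that of 36.1 to 61.8% of tested genes. It was 0.44 in OTC and 0.46 in GLUL. It was 0.51 in NAGS, 0.53 in SLC25A15 and 0.65 in ARG1, larger than in 83.9, 85.4 and 91.4% of tested genes. Nor did 1 calf lead throughout. MET 5 had the lowest CPM for CPS1, ASS1 and SLC25A13, whereas MET 6 had the lowest for ARG1 and SLC25A15 but the highest for OTC, and MET 2 had the lowest for ASL and GLS2 but the highest for SLC25A13.

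Across the 10 samples no covariation among the members passed adjustment, which with so few samples does not show that they vary independently. Of their 45 pairs, 35 had a Pearson r of log2 CPM above 0, with a median of 0.23, and none passed an adjusted p of 0.10 for r or for Spearman's rho (lowest adjusted permutation p of r 0.543), while 2 pairs had an unadjusted p of at most 0.05. The lowest r of the 45 was that of NAGS and GLUL, at -0.72 (permutation p = 0.0148, adjusted 0.543), with rho = -0.70 (permutation p = 0.0304, adjusted 0.655). Without the 2 samples farthest in NAGS r was -0.69, and it was -0.60 within CON and -0.75 within MET. The highest was that of SLC25A13 and GLUL, with r = 0.71 (permutation p = 0.0241, adjusted 0.543) and rho = 0.64 (permutation p = 0.0544), and r was 0.39 without the 2 samples farthest in SLC25A13. It was 0.05 within CON and 0.96 within MET. GLS2 and GLUL had r = -0.53 (permutation p = 0.111) and rho = -0.54 (permutation p = 0.114), with r = -0.66 without the 2 samples farthest in GLUL. The genes share libraries and scaling factors.

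ARG1 and SLC25A13 far exceeded their paralogs on the RPKM scale. ARG2, the mitochondrial arginase, stood at 1.08 ± 0.348 RPKM from 167 reads in all, and ARG1 exceeded it 123- to 436-fold in CON and 60.3- to 245-fold in MET samples. SLC25A12 (aralar), the other aspartate-glutamate carrier, stood at 1.52 ± 0.284 RPKM, and SLC25A13 exceeded it 23.3- to 31.6-fold in CON and 19.7- to 29.1-fold in MET samples. SLC25A2, a paralog of the ornithine carrier, had 0 reads in all 12 libraries, which allows up to 0.289 to 0.362 CPM. In neither of these ratios were the diets apart, and neither of the tested paralogs passed, with a log2 fold change of 0.05 for ARG2 (FDR 0.945) and 0.13 for SLC25A12 (FDR 0.705).

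**Figure D4:**
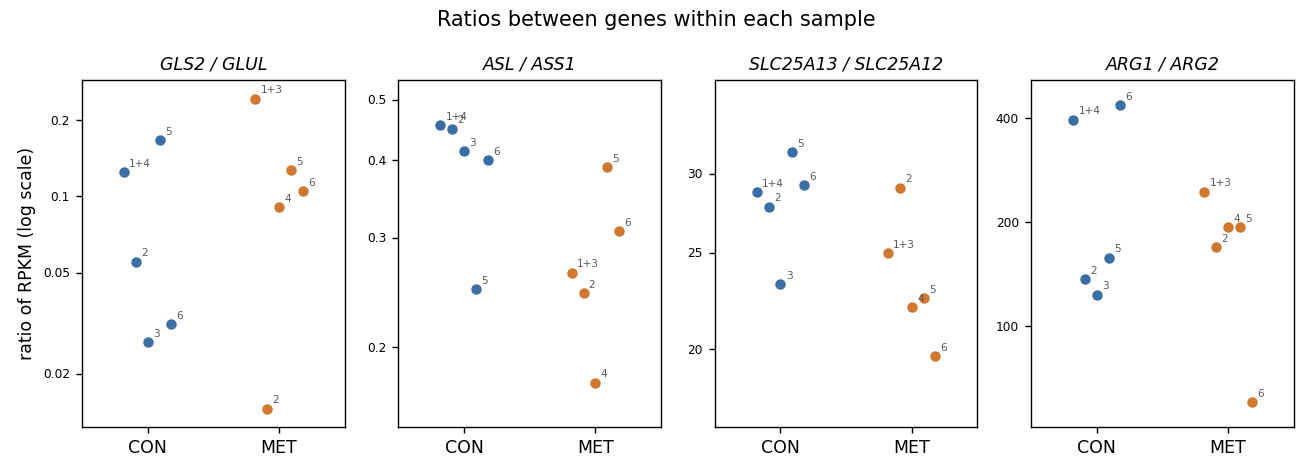
Ratio of RPKM between 2 genes within each sample (log scale), numbered by replicate. GLS2 to GLUL spans 16.7-fold, whereas SLC25A13 to SLC25A12 spans a much narrower range.

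Around the cycle, 43 related genes of nitrogen metabolism were followed, of which 41 had a row and 38 were tested. Over the 12 libraries 1 was higher and 3 were lower in MET, beside the background of 4.41%, and over the 10 samples edgeR called none, with 8 at an unadjusted p of at most 0.05 (16.4% of all tested genes), and DESeq2 called 4 (4.72% of all tested genes). Without CON 1 or CON 4, edgeR called none over the remaining libraries. Their median log2 fold change was -0.04. GOT1, the cytosolic aspartate aminotransferase, was the only one of 11 tested genes of nitrogen entry (deamination, transamination and glutamate supply) to pass. Its CPM was 35.6, 75.9, 74.7, 92.6 and 61.2 in CON 1+4, 2, 3, 5 and 6 and 132, 82.7, 144, 114 and 144 in MET 1+3, 2, 4, 5 and 6. Only MET 2 reached into the CON range. On the log2 scale, MET minus CON was 0.99 (SE 0.23, FDR 0.0674 over the 12 libraries, 0.175 over the 10 samples). The group included GLUD1 (glutamate dehydrogenase, -0.10, FDR 0.836) and GOT2, the mitochondrial aminotransferase (0.00, FDR 0.992), and its median was 0.00. Its lowest value was that of GLDC (-0.57, FDR 0.182), and ASNS had 0.44 (FDR 0.230).

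Of 8 genes of arginine and ornithine use, GATM passed, with a group median of -0.06. GATM takes the amidino group of arginine for creatine. Its CPM was 1911, 1004, 1176, 1309 and 2099 in CON 1+4, 2, 3, 5 and 6 and 987, 1259, 492, 494 and 562 in MET 1+3, 2, 4, 5 and 6. Apart from MET 2, the MET samples were below every CON sample. Its log2 fold change was -0.98 (SE 0.27, FDR 0.0855 over the 12 libraries, 0.189 over the 10 samples). ODC1, the entry to polyamines, had 0.72 (FDR 0.130), the highest value of the group.

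Of 10 tested carriers, transporters and bicarbonate enzymes, AQP9 was lower, with a group median of -0.02. AQP9 is the hepatocyte channel for glycerol and also passes urea. It averaged 437 ± 103 CPM in CON and 317 ± 23.9 CPM in MET (SD, n = 5 samples). The log2 fold change of AQP9 was -0.46 (SE 0.14, FDR 0.0943 over the 12 libraries, 0.213 over the 10 samples). CA5A, the mitochondrial carbonic anhydrase that supplies bicarbonate to CPS1, had -0.24 (FDR 0.457). SLC14A1, a urea transporter, was below the filter with 22 reads in all.

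Of 9 tested regulators, NR3C1 was lower, with a group median of -0.14. NR3C1 encodes the glucocorticoid receptor, and glucocorticoids are known inducers of urea cycle genes in liver. Its CPM was 51.0, 49.9, 43.3, 42.2 and 44.4 in CON 1+4, 2, 3, 5 and 6 and 35.3, 33.9, 25.3, 35.4 and 35.5 in MET 1+3, 2, 4, 5 and 6, and its groups did not overlap, which held for 1 of 38 related genes and for 3.71% of all tested genes. The log2 fold change was -0.49 (SE 0.10, FDR 0.0528 over the 12 libraries, 0.173 over the 10 samples). GCGR, the glucagon receptor, had 0.03 (FDR 0.934), and HNF4A, a transcription factor of hepatocytes, -0.14 (FDR 0.578).

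**Figure D5:**
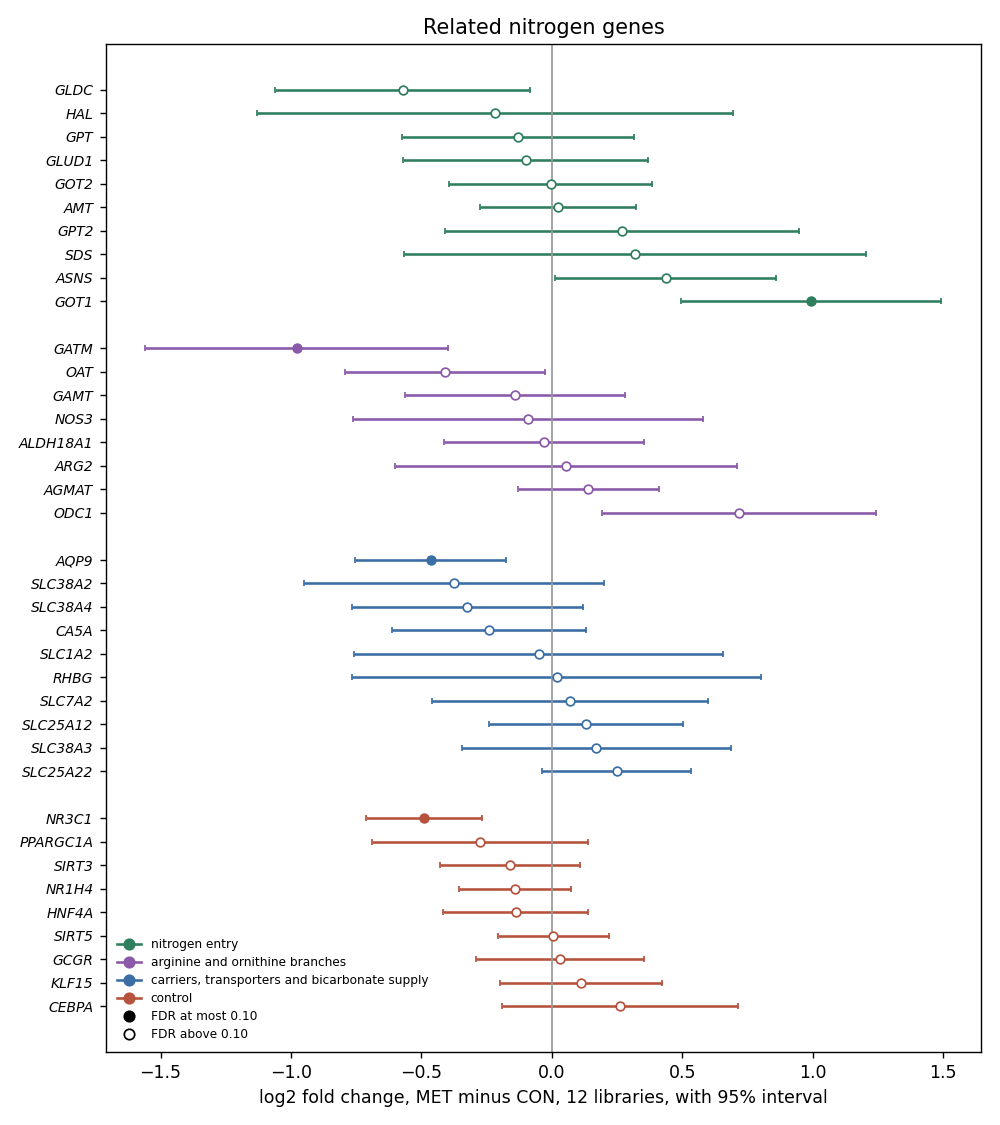
Log2 fold change (MET minus CON, 12 libraries) with 95% interval of tested related genes by group, filled where FDR was at most 0.10. GOT1 is filled above 0, and GATM, AQP9 and NR3C1 are filled below 0, and over the 10 samples the FDR of these 4 genes was 0.173 to 0.213.

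Of the genes outside the 10, those most like ASL over the 10 samples, by Pearson r of log2 CPM, included GPRC5A (0.95), PIK3C2G (0.94), EIF4B (0.93) and SGCB (0.92). For CPS1 they were ENG (0.97), NR4A1 (0.92), RNF128 (0.91), SKP1 (0.89) and ST13 (0.88). These were chosen among the highest of all tested genes, and they share the libraries and the scaling.

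Of 41 tested cell type markers, 2 passed over the 12 libraries, beside 4.41% of all tested genes, and none over the 10 samples. The 6 hepatocyte markers had a median log2 fold change of -0.26, 5 of 6 were below 0 and none passed, which is close to the median of the 10 genes. ALB had -0.65 (FDR 0.107). Of 5 periportal markers, PCK1, the gluconeogenic enzyme, passed at -0.99 (FDR 0.0570, and 0.175 over the 10 samples), and the list, of which PCK1 made up most reads, summed to 458 to 995 CPM in CON and 293 to 523 CPM in MET. The other 4 had log2 fold changes of -0.63 (CDH1), -0.22 (HAL), -0.10 (ALDH1B1) and 0.32 (SDS), and the median of the list was -0.22 over the 12 libraries and -0.07 over the 10 samples. None of 9 pericentral markers passed, with sums of 2949 to 5166 CPM in CON and 2379 to 5528 CPM in MET. Over the 12 libraries 8 of the 9 were below 0, and the median was -0.05 (-0.08 over the 10 samples). CYP2E1 had the most reads of this list, with means of 1954 CPM in CON and 1991 CPM in MET. Of 4 tested cholangiocyte markers CFTR passed at -0.56 (FDR 0.0889, and 0.195 over the 10 samples), and the list summed to 50.8 to 78.1 CPM in CON and 30.5 to 67.8 CPM in MET. The 5 Kupffer cell and macrophage markers had a median of 0.23, 0 below 0 and none called, at 557 to 819 CPM in CON and 627 to 875 CPM in MET. Endothelial markers (221 to 374 and 192 to 323 CPM), stellate and fibroblast markers (393 to 667 and 276 to 562 CPM), erythroid markers (0.110 to 26.4 and 2.80 to 22.7 CPM) and lymphocyte markers (4.23 to 13.5 and 4.69 to 15.2 CPM) had no called gene. Only 1 of 5 erythroid and 2 of 4 lymphocyte markers were tested. No marker list had a gene at 0 in every library. The part of these markers in the values of the 10 genes was not tested.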

How the data were processed

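RNA of liver biopsies was sequenced as stranded single-end libraries on 1 lane. Reads were trimmed (named in the labels), aligned to UMD 3.1.1 with STAR 2.5.3a and counted per RefSeq gene with featureCounts (Subread 1.5.2), and the authors deposited raw counts for each library. Multi-mapping reads and reads on several genes were not counted, so reads shared with near-identical copies are missing.

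Symbols for 25105 of the 30336 rows came from a RefSeq table of a later assembly (ARS-UCD2.0), and 22 mitochondrial rows had no Entrez ID. Positions and exonic lengths are those of the count files. The 10 genes, the related genes and the markers were chosen with earlier results of these data known.

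Genes were filtered with edgeR 4.0.16 (R 4.3.3; minimum count 10, total 15), TMM-normalized and compared by its quasi-likelihood test on diet alone, with Benjamini-Hochberg adjustment over all 13212 tested genes. The diet differences of the 10 genes and all calls are also given over 10 samples, with near-identical library pairs summed, and other values are over the 12 libraries unless stated. Means and SD average the CPM of a pair. Exact permutation tests used log2 CPM with a prior count of 2, and correlations 100000 permutations. Intervals and p-values over the 10 samples measure the spread between these samples. Those over the 12 libraries count both libraries of a near-identical pair as separate, so they can be too narrow or too small. Reads that carry no molecular identifier can be copies of 1 molecule.

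All 10 genes were described. Related genes were named if they were paralogs, passed FDR 0.10, or had the highest or lowest fold change of their group. A few more were chosen after their values were seen. Genes most like ASL, the called member, and CPS1 were sought among the 5 with the highest r. Some genes named by these rules are not reported here. On simulated data with 200 changed genes among 13212, the test recovered 182 over 12 libraries (84 of 100 changed 2-fold) with 11 false calls. Over 10 samples it recovered 178 with 26 false calls. The simulated libraries were drawn independently, without near-identical pairs, and with the spread per gene estimated from the 12 libraries. Their changes were 2-fold or more. They therefore do not give the error or power of the test for the real libraries or for smaller changes. Alternatives covered normalization, DESeq2 1.42.0, voom (limma 3.58.1), filters, a gene length trend, replicate blocks and leaving out libraries. No promoter or protein sequence was used here.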

Additional observations from a re-analysis of the deposited data

Results flagged for a closer look

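In 20 groups of 5 samples (10 genes in each diet), 1 sample stood apart from the others by Dixon's criterion at 95%, where chance gives about 1 in 20. OTC in MET 6 was at 277 CPM, and the other MET samples were between 122 and 134 CPM. The gap to the nearest sample took 0.925 of the range of the group, above the critical value of 0.71.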

How the results depend on the processing

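Of 370 refitted log2 fold changes of the 10 genes, 336 kept their direction and their side of FDR 0.10, 27 lost the call and 7 turned sign. All 27 were values of ASL, which stayed below 0 throughout, from -0.60 to -0.49 over 15 alternatives (FDR 0.0224 to 0.241, called in 7), -0.65 to -0.47 without 1 library and -0.62 to -0.40 without 1 of the 10 samples (FDR 0.238 to 0.334). The member count, 1 as reported, was 0 with library size only, without a filter, with CPM above 0.5 in 2 libraries, over the 10 samples (edgeR, DESeq2, without 1 sample, or with the length trend removed, the last settings added after the data were seen), with 1 library of each pair and with the replicate block. It was 0 to 1 without 1 library.

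All called genes, 583 as reported, were 107 with library size only, 374 without the 10 most counted genes in it, 1314 with DESeq2, 238 without a filter, 245 with the length trend removed, and in edgeR 0 over the 10 samples (DESeq2 624, and 2162 at unadjusted p of at most 0.05) and with 1 library of each pair. They were 26 to 565 without 1 library, fewest without CON 1 (26) and CON 4 (35), and 0 without 1 sample. The related genes called, 4 as reported, were 1 with library size only or the length trend removed, 2 without the 10 most counted genes or without a filter, 0 over the 10 samples in edgeR (DESeq2 4), and 0 to 3 without 1 library, with 0 without CON 1 or CON 4, and 1 without MET 1 or MET 6. With the replicate block, 6 genes, 0 related genes and 0 members were called. In their deviations from the diet mean, same-numbered libraries had r of -0.19 to 0.15, and none of 6 matched best with its own number. Whether the numbers mark a shared block was not tested.

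ASS1 turned to -0.0109 with the length trend removed (-0.00014 over the 10 samples), to -0.0197 without CON 3 and -0.0710 without MET 4 (-0.0294 and -0.0922 over the 10 samples), with 0.141 as its highest value without 1 library, and GLS2 to -0.20 without MET 1+3. The exact test put 2 genes at p of at most 0.05 over the 10 samples and 1 over the 12 libraries. The RPKM order kept 8 of 10 positions over 12 libraries, where SLC25A15 and GLS2 changed places. The cause of these changes was not tested. The members had at least 76 reads in every library, whereas ARG2 had 167 and SLC25A2 0 in all 12 together.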
